A study of Oryzias latipes with 2 samples.

Results

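Lactotropes are the prolactin-producing endocrine cells of the pituitary. Here they are the cells that the deposited annotation names lactotropes, 192 of the 2592 cells of the female library and 397 of the 3804 cells of the male library, 589 of 6396 in all. In both libraries the name covers 2 clusters of the deposited clustering, cluster 3 (123 female and 175 male cells) and cluster 4 (69 female and 222 male cells).

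Pituitaries of adult medaka (*Oryzias latipes*) of the transgenic line d-rR *lhb*:GFP, about 8 months old, were dissociated with trypsin and captured with the 10x Chromium 3′ kit (version 2), which counts transcripts as unique molecular identifiers (UMIs). The female group is 1 library of 24 pooled fish and the male group is 1 library of 23 pooled fish, with no treatment named for either. All fish carried GFP under the *lhb* promoter, so GFP marks the Lh gonadotropes and not the lactotropes. With 1 library per sex there are no replicates, no test was made between libraries or over cells, and sex, pool of fish and library cannot be told apart. All intervals are exact 95% intervals that cover counting error only.

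In teleosts, lactotropes fill most of the rostral pars distalis, the anterior part of the gland. Prolactin, encoded by *prl*, acts on gill, kidney and intestine to retain ions in fresh water. It belongs to the same hormone family as growth hormone (*gh*) and somatolactin (*sl*), and dopamine from the brain inhibits its release.

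Lactotropes made up 8.64% (7.51 to 9.89) of the 2221 female cells and 12.2% (11.1 to 13.4) of the 3245 male cells that were not red blood cells. The number of UMIs per lactotrope ranged from 1524 to 44871 in females, with a median of 6447, and from 1522 to 101151 in males, with a median of 5763. The clusters differed in depth. Cluster 3 cells had a median of 5829 UMIs in females and 3956 in males, whereas cluster 4 cells had 9911 and 8315. Cells deeper than the 95th percentile of their library (10778 UMIs in females and 11971 in males) were 26 of 69 and 63 of 222 cells in cluster 4, and 1 of 123 and 1 of 175 in cluster 3. Cluster 3 held 64.1% (56.8 to 70.8) of the female and 44.1% (39.1 to 49.1) of the male lactotropes, so any value pooled over lactotropes weights the clusters differently in each sex. The libraries shared 16 cell barcodes, of which 2 belonged to female lactotropes and 0 to male lactotropes.

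The marker *prl* fitted the label. It took a median of 27.7% of all UMIs of a lactotrope in females (lowest 0.192%, highest 63.4%) and 21.1% in males (lowest 0.382%, highest 75%). In the other annotated types apart from red blood cells the median lay between 0.113% and 0.185% in females and between 0.148% and 0.227% in males. Red blood cells, which should lack the transcript, had medians of 0.211% and 0.384%, and the level in the other types was therefore read as background. Only 5 of 2029 female and 9 of 2848 male cells of the other types reached 5% *prl*. Because *prl* named the cells, these values are a description.

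Within the lactotropes, *prl* took a larger share in cluster 3 than in cluster 4. The median was 32.5% in cluster 3 and 17.2% in cluster 4 in females, and 31.1% and 14.5% in males. The ranges overlapped widely, from 0.273% to 63.4% against 0.192% to 40.0% in females and from 6.87% to 75% against 0.382% to 44.6% in males. Pooled over all lactotropes, *prl* was 24.8% of the UMIs in females and 19.4% in males. Within cluster 3 the pooled shares were 34.1% and 32.5%, and within cluster 4 they were 17.2% and 15.7%. The difference between the sexes was thus smaller in either cluster than in the pool.

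**Figure D1:**
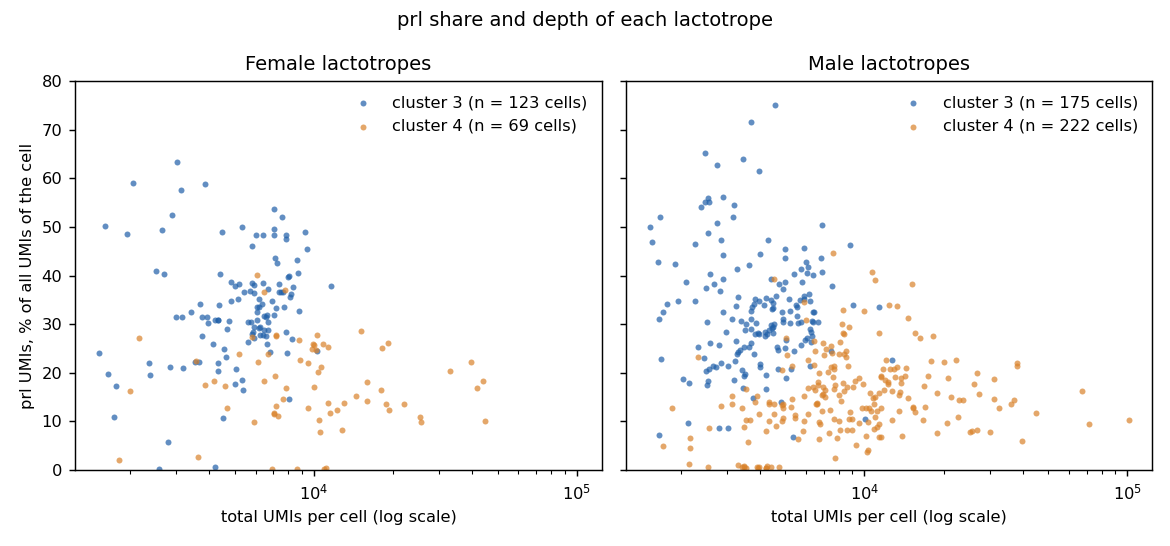
Share of *prl* in all UMIs of a cell (%) against the total UMIs of the cell (log scale) for the 192 female and 397 male lactotropes, each point 1 cell, colored by cluster. Cluster 4 cells lie lower and further right than cluster 3 cells, with medians of 17.2% against 32.5% in females and 14.5% against 31.1% in males.

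The other hormone-encoding genes were at background in nearly all lactotropes. Another hormone-encoding gene passed 1% of the UMIs in 6 female and 9 male lactotropes. In the remaining 186 female cells, *gh*, the growth hormone gene of somatotropes, was at 4.99 (4.63 to 5.37) per 10000 of all UMIs, beside 5.74 in macrophages and 5.35 in red blood cells. In the remaining 388 male cells it was at 7.96 (7.65 to 8.27), beside 27 in macrophages and 12.7 in red blood cells. The proopiomelanocortin gene *pomca* was at 13.3 in these female cells and 22.1 in these male cells, beside 22.4 and 58.6 in red blood cells. The glycoprotein hormone subunit genes *lhb*, *fshb* and *cga* were each lower in these lactotropes than in red blood cells of the same library, for example *lhb* at 8.66 against 13.5 in females and 14.5 against 25.4 in males. After each cell was thinned to 2200 UMIs, the median over these 7 genes of the share of lactotropes with at least 1 UMI was 64.8% in females and 85.4% in males. It was 68.1% and 82.2% in the uncharacterized cells, whose median depth was 3381 and 2830 UMIs. Without thinning it was 92.7% and 96.7% in lactotropes, and 83.4% and 89.7% in the uncharacterized cells.

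A few cells within the annotation stood apart. In females 8 lactotropes, 2 of cluster 3 and 6 of cluster 4, had less than 5% *prl*. Of these, 2 cluster 4 cells carried *gh* at 26.5% and 9.40% with *prl* at 0.192% and 0.488%, and 2 carried *sl* at 13.1% and 17.5% with *prl* at 0.232% and 0.220%. These 4 cells therefore had another hormone gene in place of *prl*. The *gh* pair held 84.1% of all *gh* UMIs of the female lactotropes, and the *sl* pair held 87.0% of the *sl* UMIs. In males 20 lactotropes had less than 5% *prl*, all in cluster 4, and in 13 of them it was below 1%. None of these 20 had another hormone gene above 1%. Cells with a high level of *prl* and of another hormone gene were rare. In 1 male cell of cluster 3, *tshba*, the thyrotropin subunit gene, was at 9.70%, *cga* at 17.1% and *prl* at 10.5%, and this cell held 79.2% of all *tshba* UMIs of the male lactotropes. In 1 male cell of cluster 4, *gh* was at 19.0% and *prl* at 7.91%, with 64.9% of all *gh* UMIs of the male lactotropes. Whether such barcodes hold RNA of more than 1 cell was not tested, and the cells with the highest doublet scores had been removed before deposit.

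Levels of all other genes are given as UMIs per 10000 UMIs outside the 8 hormone-encoding genes, since *prl* alone fills a large share of a lactotrope. A gene was called at a 2-fold or larger difference with at least 50 UMIs, observed in the lactotropes for a higher call or expected from the other cells for a lower one. Against all other cells except red blood cells, 262 of 3206 genes (8.17%) were called higher in lactotropes in both sexes and 263 (8.20%) lower. In females alone the calls were 317 higher (9.88%) and 337 lower (10.5%) of 3209 genes, and in males 740 higher (12.6%) and 454 lower (7.75%) of 5860 genes. None of the genes called in females was called the other way in males. Since the annotation was built by clustering these cells, the folds describe the cells and do not test the label. Of the 262 genes, 70 had their highest level of all annotated populations in the lactotropes in both sexes, and 15 stood 2-fold above the next population in both. Taken alone, cluster 3 had 125 genes (10.3%) higher and 174 (14.4%) lower than the other cells in both sexes, of 1208 genes, and cluster 4 had 256 (12.6%) higher and 191 (9.38%) lower, of 2037 genes. Of the 262 genes, 72 were called higher in each of the clusters taken alone, in both sexes, a count also taken only among genes already called higher. Only 63 identifiers of the files are paired with a gene name, nearly all in the authors' marker tables, so the named genes are a subset that was picked on these cells.

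The highest folds belonged to identifiers without a name. ENSORLG00000012989 was at 1.07 per 10000 in female and 1.08 in male lactotropes, against 0.00702 and 0.00865 in the other cells, which is 153-fold (68.1 to 424) and 125-fold (67.0 to 264) higher. ENSORLG00000025723 was at 11.3 and 8.72, against 0.126 and 0.149, which is 89.4-fold (73.4 to 110) and 58.7-fold (50.2 to 68.9) higher. Across the 24 levels of the annotated types in both sexes, its level had a Pearson correlation of 0.998 with that of *prl*. This correlation is a description, since cells of 1 library share depth and free RNA and the lactotropes alone set the high end.

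Among named genes, *scgn* stood out. It encodes secretagogin, a calcium-binding protein of neuroendocrine cells. Its level was 10.4 per 10000 in female and 9.03 in male lactotropes, against 0.491 and 0.583 in the other cells, which is 21.2-fold (19.0 to 23.8) and 15.5-fold (14.2 to 16.9) higher. Cluster 3 had 15.3 and 15.8, and cluster 4 had 7.22 and 7.48. Melanotropes, with 8.18 and 8.44, lay above cluster 4 and below cluster 3, so *scgn* was shared by the *prl*-producing cells and a *pomca*-producing type.

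The pair of identifiers named HSPA2 (1 of many), members of the Hsp70 chaperone family, were also high. HSPA2 (1 of many) ENSORLG00000028255 was at 129 per 10000 in female and 64.8 in male lactotropes, 13.4-fold (13.1 to 13.8) and 7.05-fold (6.88 to 7.22) above the other cells. Corticotropes had 80.6 and 74.7, so in males they were above the lactotropes. HSPA2 (1 of many) ENSORLG00000026984 was at 38.5 and 18.2, 15.1-fold (14.3 to 15.9) and 8.99-fold (8.56 to 9.45) above the other cells. Both were higher in cluster 3 than in cluster 4, for example ENSORLG00000028255 with 201 against 82.5 in females and 115 against 53.2 in males. As they share a name and may be near-identical copies, the split of UMIs between them is uncertain.

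Other named genes were higher in lactotropes than in the pool of other cells but not the highest there. The synuclein gene *sncga* was 4.36-fold (3.95 to 4.82) and 2.89-fold (2.66 to 3.13) higher, at 5.59 and 3.82 per 10000, whereas somatotropes had 12.4 and 11.3. The gene *rgs5b*, a regulator of G protein signaling, was 4.19-fold (3.50 to 5) and 4.28-fold (3.75 to 4.88) higher, at 1.74 and 1.71, whereas thyrotropes had 7.19 and 11.7. Likeness of the level to that of *prl* over the 24 types and sexes was 0.804 for HSPA2 (1 of many) ENSORLG00000026984, 0.728 for HSPA2 (1 of many) ENSORLG00000028255 and 0.693 for *scgn* (Pearson correlation, as a description).

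The named genes with the lowest folds in lactotropes had their highest level in gonadotropes or *cga*-expressing cells, except *cyp19b* in males, which was highest in the uncharacterized cells of cluster 16. The gonadotrope transcription factor gene *nr5a1b* was 14.6 times lower in female and 18.2 times lower in male lactotropes, at 1.12 and 0.602 per 10000 against 16.3 and 11 in the other cells. The GFP-cassette, driven by the *lhb* promoter, was 12.9 and 19.6 times lower, at 48.6 and 61.1 against 630 and 1199. Other such genes were CLEC3B (14.8 and 15.8 times lower), *qpct*, the glutaminyl cyclase gene (12.7 and 16.8), *cabp5a*, a calcium-binding protein gene (10.5 and 17.1), *cyp19b*, the brain aromatase gene (10.3 and 15.5), the retinoic acid-binding protein gene *crabp1a* of ENSORLG00000023034 (11.1 and 12.1) and *cdc45*, a DNA replication gene (9.12 and 11.1). All 5 genes of the deposited marker list of the Gonadotrope-like cells and all 5 of the *cga*-expressing cells were at least 2-fold lower in lactotropes in both sexes, but the authors chose these lists on the same cells. The ribosomal protein gene *rpl7*, at 52.0 and 54.3 in lactotropes against 56.3 and 60.3, was close to level.

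The clusters of lactotropes differed from each other by many genes. Among 1982 genes, 284 (14.3%) were called higher in cluster 4 than in cluster 3 in both sexes and 36 (1.82%) lower. In females alone the calls were 340 higher (17.1%) and 95 lower (4.79%) of 1983 genes, and in males 792 higher (15.0%) and 338 lower (6.41%) of 5274 genes. Among the 1982 genes, 83.8% of the higher calls of females were also called in males and 92.8% of those of males in females. For the lower calls these shares were 37.9% and 36.7%. On the scale of all UMIs the median log2 fold moved up by 0.31 in females and 0.33 in males, and the lower calls dropped to 6, so the call of a lower gene depended on the scale. This comparison was chosen after the data had been seen, and the clusters were built from the same cells, so the calls are a description.

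Most of the 284 genes called higher in cluster 4 had their highest level outside the lactotropes in the uncharacterized cells of cluster 14 (198 female and 386 male cells). This held for 75.7% in females and 59.5% in males, against 19.0% and 13.1% of all genes tested. Cluster 13 was highest for 8.45% and 15.5%, against 3.23% and 5.45%. The apolipoprotein E gene *apoeb*, a lipid transport gene that glial cells and macrophages express in mammals, was at 16.4 per 10000 in female and 18.2 in male cells of cluster 3, at 181 and 256 in cluster 4, and at 448 and 485 in cluster 14. It was thus 11-fold (10.2 to 11.9) and 14.1-fold (13.2 to 15.0) higher in cluster 4 than in cluster 3. A level of 20 or more per 10000 was found in 68 of 69 female and 222 of 222 male cells of cluster 4, and in 23 of 123 and 51 of 175 cells of cluster 3. The difference between the clusters was therefore spread over the cells rather than carried by a few of them.

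The same order was found for carbonic anhydrase 1, an enzyme that converts carbon dioxide and bicarbonate, with 2.22 and 2.44 in cluster 3, 32.5 and 34.9 in cluster 4, and 73.0 and 62.0 in cluster 14. The argininosuccinate lyase gene *asl*, of arginine synthesis, was at 2.09 and 1.69, then 24.3 and 21.7, then 51.4 and 41.6. The gene *mala* was at 1.32 and 0.937, then 14 and 13.1, then 26.6 and 22.2. In each of these genes cluster 4 lay between the other clusters in both sexes. All 5 genes of the deposited marker list of cluster 14, namely *asl*, *mala*, *si:ch211-156l18.7*, *apoeb* and carbonic anhydrase 1, were at least 2-fold higher in cluster 4 than in cluster 3 in both sexes, and their summed level was 22.9 and 24.6 in cluster 3 against 262 and 338 in cluster 4. Of the 5 genes of the list of cluster 13, 4 in females and 5 in males were also at least 2-fold higher in cluster 4, with summed levels of 0.831 and 0.733 in cluster 3 against 10.2 and 7.81 in cluster 4. The authors chose both lists on these same cells, so these counts and sums are a description. Of all genes tested with the UMI minimum, 17.1% in females and 15.0% in males were called higher in cluster 4 than in cluster 3. Over the genes tested, the profile of cluster 4 had a correlation of 0.913 and 0.9 with that of cluster 13 and of 0.913 and 0.928 with that of cluster 14. With cluster 3, the other cluster of lactotropes, it was 0.889 and 0.884. All these correlations were high, with 0.871 and 0.872 for somatotropes and 0.740 and 0.721 for *cga*-expressing cells. The deposited tables list *mala* as a marker of cluster 4 and of cluster 14, so a high level in cluster 4 was part of its choice. Outside those lists, the cerebellin gene *cbln18* was 11.4-fold (8.04 to 16.8) and 17.7-fold (11.1 to 29.9) higher, *spaca4l* 12.6-fold (8.06 to 20.9) and 13.7-fold (8.10 to 25.1), and *spidr*, a DNA repair scaffold gene in humans, 15.8-fold (11.9 to 21.4) and 11.8-fold (9.28 to 15.3).

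**Figure D2:**
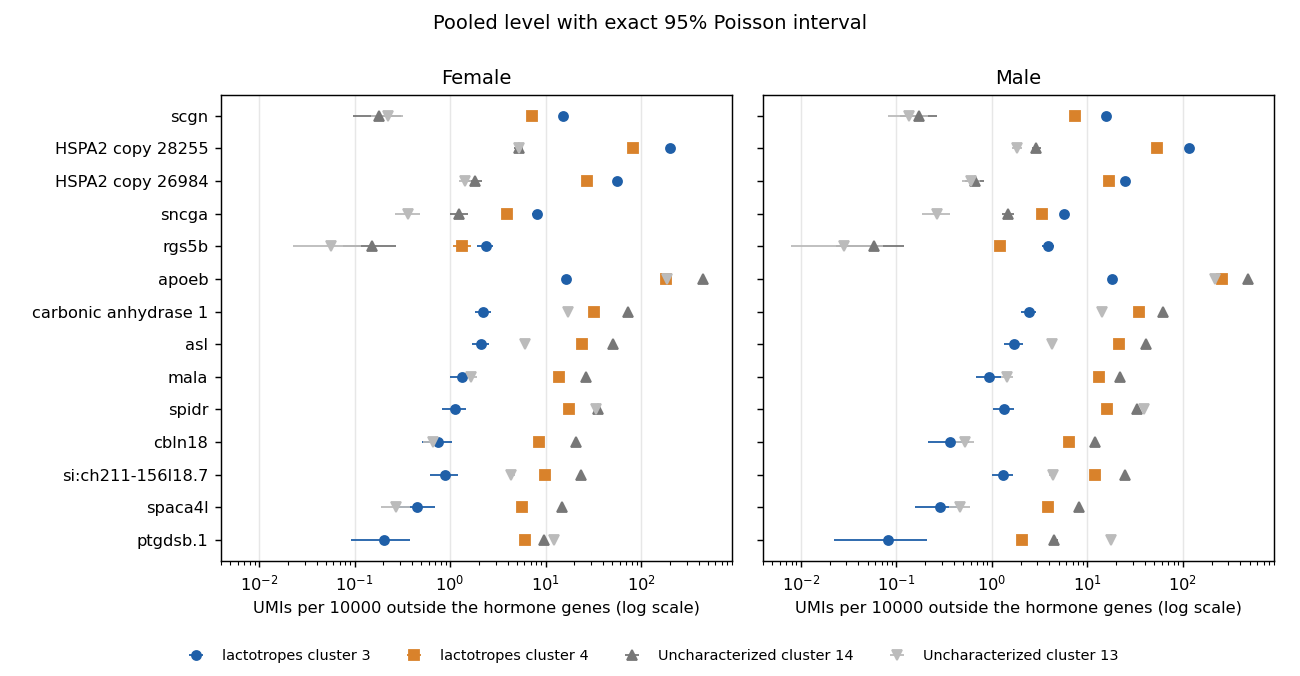
Pooled level of 14 named genes in UMIs per 10000 UMIs outside the hormone-encoding genes (log scale) in lactotrope clusters 3 and 4 and uncharacterized clusters 13 and 14, with exact 95% Poisson intervals as lines, females on the left and males on the right. HSPA2 copies are labelled by the end of their identifier. The upper 5 genes are highest in cluster 3 and lowest in clusters 13 and 14, and from *apoeb* down cluster 3 is below clusters 4 and 14, with *apoeb* at 16.4 and 181 per 10000 in clusters 3 and 4 in females.

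Identifiers almost without UMIs in cluster 3 showed the same order. ENSORLG00000024957 had 0 UMIs in cluster 3 in either sex, against 71 in female and 358 in male cells of cluster 4, which is at least 15.4-fold and at least 27.4-fold higher when cluster 3 of each library is set at 3 counts. ENSORLG00000010362 had 1 UMI in cluster 3 in each sex, against 244 and 595 in cluster 4, a ratio of 159 (28.2 to 6298) and 137 (24.5 to 5414). Both were higher still in cluster 14, the former at 1.42 and 2.72 per 10000 and the latter at 5.44 and 5.06.

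Of the 36 genes lower in cluster 4, 14 were among the 262 called higher in lactotropes than in the other cells, which were 8.17% of 3206 genes. Of the 284 genes (14.3% of 1982) called higher in cluster 4, 63 were among the 262, a smaller part of a longer list. Outside the lactotropes, the highest level of these 36 genes was in somatolactotropes for 22.2% in females and 8.33% in males, in corticotropes for 16.7% and 16.7%, and in melanotropes for 19.4% and 16.7%. Of all 1982 genes tested these shares were 13.3% and 3.23%, 8.38% and 6.21%, and 5.80% and 4.69%. Each share of the 36 rests on 3 to 8 genes. The 4 genes listed as markers of cluster 3 other than *prl* were at least 2-fold lower in cluster 4 in females, and 3 of 4 were in males, where HSPA2 (1 of many) ENSORLG00000026984 was at 0.677 (0.634 to 0.723) of its cluster 3 level. Cluster 4 still held both kinds of genes, with *scgn* 0.471 (0.418 to 0.529) and 0.475 (0.436 to 0.518) of its cluster 3 level but far above the 0.181 and 0.174 per 10000 of cluster 14.

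**Figure D3:**
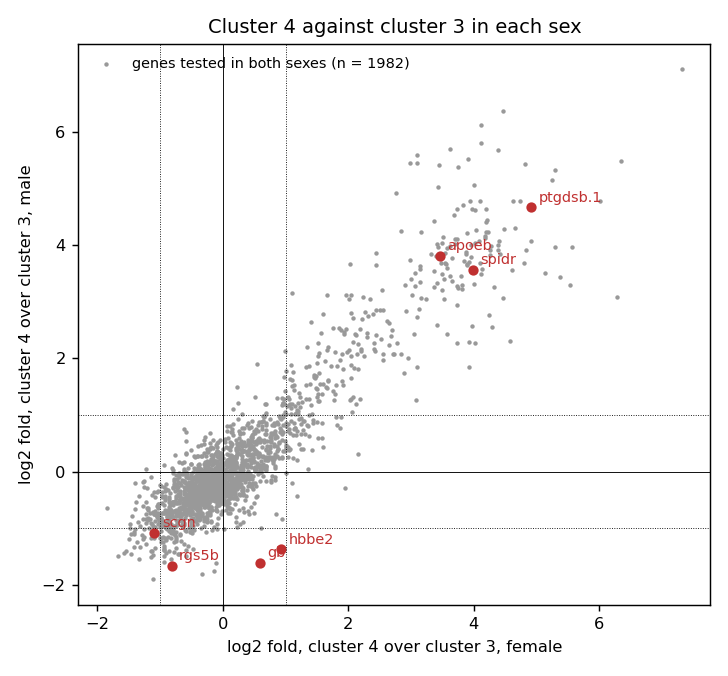
Log2 fold of the level in cluster 4 over cluster 3 in females (horizontal) and in males (vertical) for the 1982 genes tested in both sexes, each point 1 gene, with 7 named genes in red and dotted lines at 2-fold. The genes form a cloud around 0 and an arm toward high folds in both sexes, while the hemoglobin gene *hbbe2* and *gb* fall on opposite sides of 0 in the 2 sexes.

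Among the genes that differed between cluster 14 and cluster 3, cluster 4 lay near the middle. Among 559 genes at least 2-fold higher in cluster 14 than in cluster 3 in both sexes, the level in cluster 4 was between the other levels for 552 (98.7%) in females and 555 (99.3%) in males, at a median of 46.9% and 51.1% of the way from cluster 3 to cluster 14. Among 373 genes lower in cluster 14 it was between for 362 (97.1%) and 367 (98.4%), at 50% and 52.4% of the way. For the genes higher in another population, the position depended on the population. Among 42 genes higher in somatotropes than in cluster 3, cluster 4 was at a median of 8.98% and 4.88% of the way, and among 324 genes higher in the Gonadotrope-like cells at 5.04% and 0.908%. Toward the uncharacterized cluster 13 (408 genes) the medians were 50.7% and 43.1%, with fewer genes between (76.7% and 75.7%). For the genes lower in another population than in cluster 3 the positions were similar, with medians of 56.8% and 55.1% toward somatotropes (82 genes), 50.3% and 50.3% toward the Gonadotrope-like cells (212), 46.2% and 45% toward Lh-gonadotropes (245) and 52.9% and 49.1% toward cluster 13 (416). Cluster 3 enters both sides of each position, and these values are a description. Cluster 14 was the highest other population for 75.7% in females and 59.5% in males of the 284 genes called higher in cluster 4, against 19.0% and 13.1% of all genes tested.

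In single cells the same genes spread along a line. The 559 genes took a median of 3.88% of the UMIs outside the hormone-encoding genes in female cells of cluster 3, 17.1% in cluster 4 (7.73% to 31.1%) and 33.2% in cluster 14. In males the medians were 4.4%, 20.3% (7.76% to 38.1%) and 33.4%. The 373 genes took 21.7%, 12.5% and 3.78% in females and 19.9%, 11.3% and 3.94% in males. Cells of cluster 4 filled the range between the others and overlapped both, except for the 373 genes in females. There the lowest cell of cluster 4 had 6.74% and the highest cell of cluster 14 had 6.30%. The genes were picked on the difference between clusters 3 and 14 in these same cells, so the distance between those clusters was fixed in advance. The 13 male cells of cluster 4 with less than 1% *prl* were at the cluster 14 end of their cluster, with medians of 30.9% and 5.66%. Their values, 25.5% to 38.1% and 4.65% to 7.30%, lay within the range of the male cluster 14 cells on both lists. For the 373 genes their median was above the 95th percentile of the male cluster 14 cells, 4.97%. The 4 female cells of cluster 4 with *gh* or *sl* in place of *prl* had medians of 15.8% and 9.70%, within the range of their cluster, and the 2 female cells of cluster 3 with less than 1% *prl* had 4.78% and 19.8%, near the medians of cluster 3.

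**Figure D4:**
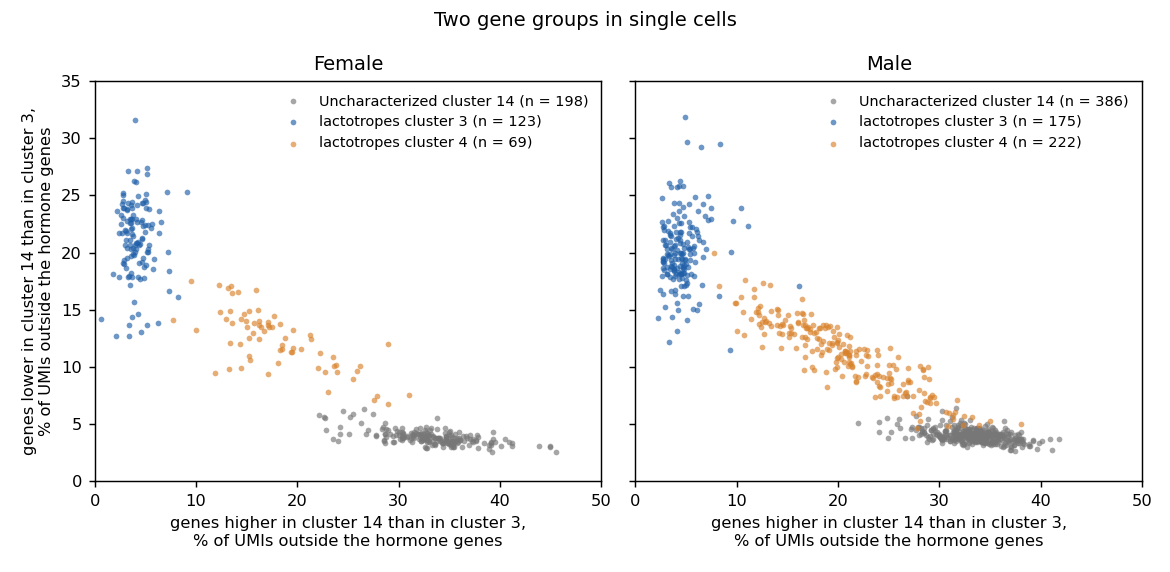
Share of the UMIs outside the hormone-encoding genes (%) from 559 genes higher (horizontal) and 373 genes lower (vertical) in cluster 14 than in cluster 3, each point 1 cell of lactotrope cluster 3, lactotrope cluster 4 or uncharacterized cluster 14. Cluster 4 lies between the other clusters, with medians of 17.1% and 12.5% in females and 20.3% and 11.3% in males. The genes were picked on clusters 3 and 14 of these cells, so those clusters are apart by choice of genes.

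Depth moved with these differences. Cluster 4 cells had 1.70 times as many UMIs as cluster 3 cells in females and 2.1 times as many in males (ratio of medians), and 1.78 and 1.95 times as many genes detected, whereas cluster 14 cells had medians of only 3208 and 2830.5 UMIs. Without the cells above the 95th percentile of their library, 133 genes were called higher in cluster 4 and 20 lower, which is 18.7% and 2.81% of the smaller number of genes that passed the UMI minimum, against 14.3% and 1.82% with these cells. The 5 genes of the deposited macrophage list summed to 1.57 and 1.59 per 10000 in cluster 3 and to 2.50 and 1.97 in cluster 4. Of these 5 genes, 1 in females and 3 in males were at least 2-fold higher in cluster 4, and 0 and 1 at least 2-fold lower. Their median fold was 1.66 in females and 2.07 in males. These folds used no UMI minimum and set a count of 0 at 3, and some rest on very few UMIs. In cluster 3, Orla-DCA of this list had 2 UMIs in females and 1 in males. CD74 molecule, an antigen presentation gene of the list, was at 1.93 and 1.43 in cluster 4 against 294 and 161 in macrophages. In males it had 69 of 491066 UMIs outside the hormone-encoding genes in cluster 3 and 306 of 2135037 in cluster 4. In females it had 57 of 445352 and 132 of 684228. The 5 genes of the red blood cell list summed to 7.32 and 33.2 in cluster 3 and to 10.1 and 12.9 in cluster 4. The part of depth, and of barcodes that hold RNA of more than 1 cell, in the differences between the clusters was not tested.

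Between the libraries the lactotropes differed by few genes. Of 5357 genes, 34 (0.635%), with at least 50 UMIs in the higher library, were called higher in female lactotropes and 79 (1.47%) higher in male lactotropes. Outside the hormone-encoding genes, female lactotropes held 1129580 UMIs and male lactotropes 2626103. The minimum of 50 UMIs thus stands for a higher level in females, and the counts of the directions cannot be compared directly. In the other cells except red blood cells the calls were 176 (1.82%) and 74 (0.765%) of 9672 genes. Within cluster 3 they were 13 (1.07%) and 9 (0.741%) of 1215 genes, and within cluster 4 they were 21 (0.448%) and 58 (1.24%) of 4683. The female and male UMIs outside the hormone-encoding genes were 445352 and 491066 in cluster 3, and 684228 and 2135037 in cluster 4. Of the 34 and 79 genes, 7 and 3 were also called in cluster 3, and 16 and 27 in cluster 4. Called in both clusters were 2 genes higher in females and 1 higher in males, of at most the 1215 genes tested in cluster 3. With so few calls in each cluster, this overlap says little about whether the clusters agree.

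The named gene with the highest female ratio was *zgc:122979*, at 3.08 per 10000 in female and 0.941 in male lactotropes, a ratio of 3.28 (2.77 to 3.87). It was higher in females within cluster 3 (5.15, 3.71 to 7.27), within cluster 4 (2.13, 1.70 to 2.66) and in the other cells (2.28, 2.22 to 2.34). The lactotropes thus shared their direction with the rest of the library. The gene *zgc:122979* is a deposited marker of the Fsh gonadotropes, and lactotropes had 0.161 and 0.112 of the level of the other cells. In female cluster 3, 1 cell held 17.6% and 5 cells 38.6% of its UMIs. The HSPA2 (1 of many) copy ENSORLG00000026984 had a ratio of 2.12 (2.03 to 2.21), with 2.26 in cluster 3, 1.64 in cluster 4 and 1.27 in the other cells, and copy ENSORLG00000028255 had 1.99 (1.95 to 2.04). The prostaglandin D synthase gene *ptgdsb.1* had a ratio of 2.22 (1.94 to 2.54) in lactotropes, at 3.77 against 1.70 per 10000, and 0.948 (0.899 to 1) in the other cells. In cluster 3 it rested on 9 female and 4 male UMIs. Cluster 4 held 417 of the 426 UMIs of female lactotropes, and 5 of its cells held 38.4% of these 417. The gene *ptgdsb.1* is a deposited marker of the uncharacterized cluster 13. The gene *trmt6*, of a tRNA methyltransferase, had a ratio of 2.95 (2.19 to 3.99), with 4.34 in cluster 4 and 0.919 (0.431 to 1.93) in cluster 3. Of its 104 UMIs in female lactotropes 65 (62.5%) lay in the 2 cells with *sl*, and somatolactotropes had 78.7 per 10000 against 0.921 in lactotropes.

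Of the genes called higher in male lactotropes only 3 have a name, all red blood cell genes, and a few cells held most of their UMIs. The gene named hemoglobin was at 1.24 in female and 3.34 in male lactotropes, against 859 and 869 in red blood cells, a female over male ratio of 0.371 (0.308 to 0.444), and *gb* had a ratio of 0.442 (0.396 to 0.492). In the other cells the ratios were 0.496 (0.456 to 0.538) and 0.471 (0.450 to 0.492). Only 3 male lactotropes had more than 1% hemoglobin UMIs, up to 33.7%, and they held 76.0% of them, summed over 4 red blood cell genes. In females 2 such cells held 49.9%. Without these cells, an alternative chosen after seeing the data, hemoglobin was at 0.975 in females and 0.740 in males, a ratio of 1.32 (1.03 to 1.68), so that its direction turned. The ratio of *gb* was then 0.919 (0.777 to 1.08) and that of *si:ch211-103n10.5* 0.778 (0.451 to 1.29), neither of them called. For *apoeb* the pooled ratio of 0.549 (0.539 to 0.560) stood beside 0.901 (0.816 to 0.994) in cluster 3 and 0.707 (0.694 to 0.721) in cluster 4, with fewer cluster 4 cells among the female lactotropes.

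**Figure D5:**
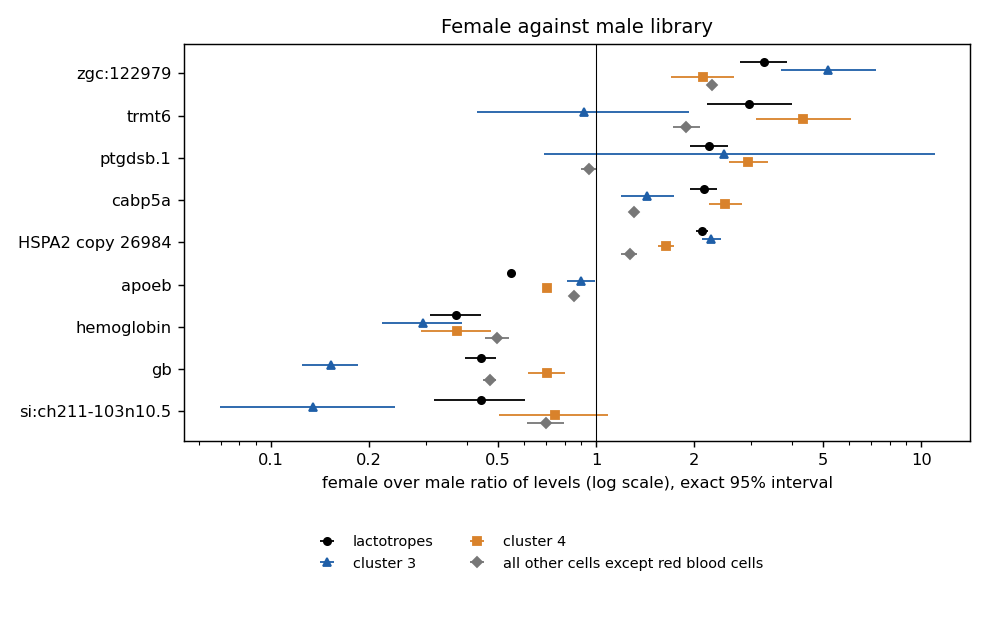
Female over male ratio of the level (log scale, exact 95% intervals) for 9 named genes in all lactotropes, in cluster 3, in cluster 4 and in all other cells except red blood cells. The ratio of *zgc:122979* is above 1 in all 4, that of *trmt6* is 4.34 in cluster 4 and 0.919 in cluster 3, and that of *apoeb* is nearer 1 in either cluster than in the pool.

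Intron UMIs were rare for *prl*. Of the *prl* UMIs in the exon, intron and spanning tables, 24 in females (0.00681%) and 76 in males (0.0123%) were intronic. This was not particular to *prl*, since in the other cells *gh* had 0.0225% and 0.0108% and *pomca* 0.0472% and 0.0272%. Over the genes outside the hormone-encoding genes, 19.4% of the UMIs were intronic in female and 19.5% in male lactotropes, against 14% and 12.6% in the other cells. Over all genes the share was 15.0% and 16.0% in lactotropes and 12.2% and 10.6% in the pool of other cells. The types in that pool differed, with 15.1% and 14.9% in *cga*-expressing cells, 14.9% and 14.2% in cluster 14, and 6.90% and 4.97% in melanotropes. In cluster 4 of males the share of *prl* and the intron share of a cell had a Spearman correlation of -0.62 (222 cells), against -0.16 in females (69 cells), with depth and the share of *prl* itself common to both quantities.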

How the data were processed

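Single-cell RNA-seq of 1 female and 1 male pool of pituitaries was used. The authors deposited a matrix of unnormalized UMI counts, with separate tables of exon, intron and spanning counts and a cluster and type for each cell. The submitters' processing notes name Cell Ranger and Seurat. Per the study's methods, barcodes with top doublet scores had been taken out before deposit. The genome build was not given in the sources used here. The authors' deposited marker tables also hold mean signal values and p-values of their own comparison, and these were not used.

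Lactotropes were the cells so annotated, and types were not renamed. UMIs were pooled over cells and divided by the UMIs outside 8 hormone-encoding genes (*prl*, *gh*, *sl*, *pomca*, *lhb*, *fshb*, *tshba* and *cga*), per 10000. Calls needed 2-fold and 50 UMIs, and a count of 0 was set at 3 counts for a ratio. Shares have Clopper-Pearson, sums Poisson and ratios conditional binomial 95% intervals. Depth per lactotrope was 1522 to 101151 UMIs. Thinning drew 2200 UMIs per cell, and 10 female and 20 male lactotropes were shallower and left out. The computation of folds and calls was checked on simulated pooled Poisson counts. These hold no variation between cells, so the check cannot show how far a few cells move a fold. The tools were scipy 1.17.1, pandas 2.3.3 and numpy 2.4.6, under Python 3.11.15.

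Named genes were drawn from the hormone-encoding genes, the 25 genes with a symbol highest over the other cells, the 8 lowest, and up to 8 per direction called between the sexes. The 25 were taken from genes with at least 50 UMIs in the lactotropes of each sex, whether called or not. The names come from the deposited marker tables, apart from *rpl7* and the hormone genes, and at most 2 unnamed identifiers are given per direction. Other gene lists were prepared but could not be matched to the identifiers and were not used. The lactotropes and the lists were chosen with earlier results of these data known. The comparison of cluster 4 with cluster 3 and the values within each cluster were added after the data had been seen, as were CD74 molecule and the unnamed identifiers low in cluster 3. The alternatives are other scales, UMI minimums, folds and cells.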

Additional observations from a re-analysis of the deposited data

Results flagged for a closer look

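Only the genes followed individually, and not all genes tested, were screened for folds on opposite sides of 1 in the sexes. This held for 7 of them, with both intervals clear of 1, and the difference was not tested. Lactotropes over the other cells, *ptgdsb.1* was at 1.37 in females and 0.587 in males. Cluster 4 over cluster 3, the GFP-cassette was at 1.37 in females and 0.647 in males, *cabp5a* at 1.29 and 0.741, *nif3l1* at 1.41 and 0.604, and *qpct* at 1.93 and 0.564. These 4 were each at least 2-fold lower in lactotropes than in the other cells in both sexes. In the red blood cell genes, *gb* was at 1.52 and 0.328 and *hbbe2* at 1.91 and 0.389. Few cells held many of these UMIs. In the female cluster 4, 1 cell held 30.4% and 2 cells 44.0% of those of the GFP-cassette. For *gb*, 1 cell held 76.0% of the UMIs of male cluster 3 and 1 cell held 60.3% of those of female cluster 4. Without the 2 cells with the most UMIs of the gene in each cluster, an alternative chosen after seeing the data, the female fold of the GFP-cassette turned to 0.864 (0.810 to 0.922) beside 0.648 in males. That of *cabp5a* was then 1.06 (0.898 to 1.24) beside 0.815, that of *nif3l1* 1.28 (0.997 to 1.64) beside 0.698 and that of *qpct* 1.83 (1.1 to 3.15) beside 0.779 (0.524 to 1.19). For *gb* the folds became 0.789 (0.586 to 1.06) and 0.795, and for *hbbe2* 1.02 (0.713 to 1.47) and 0.628. For *ptgdsb.1*, without the 2 lactotropes of each sex that held the most, they were 1.14 (1.01 to 1.27) and 0.525 (0.472 to 0.583), so only for this gene did both intervals stay clear of 1 on opposite sides.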

How the results depend on the processing

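No paired analysis was possible because each sex is 1 library. The number of genes tested moves with the setting, so each count of calls has its share of the genes tested beside it. The lists themselves also changed. Of the 34 and 79 genes called between the sexes, 18 and 43 were called again with exon counts. Without the deepest cells 16 and 32 were, and after thinning 7 and 14. Against the other types, the genes called higher and lower (262 and 263, 8.17% and 8.20%) were 504 and 442 with 20 UMIs (8.00% and 7.01%), 79 and 74 with 200 UMIs (10.1% and 9.41%), 123 and 170 at 3-fold (3.84% and 5.30%), 69 and 80 after thinning (8.42% and 9.77%), 125 and 174 in cluster 3 only (10.3% and 14.4%), and 143 higher without the deepest cells (7.24%). Against the highest other type 16 genes were called higher (0.279%), and lower calls were not counted. For female over male (34 and 79 in males, 0.635% and 1.47%) they were 98 and 288 with 20 UMIs (1.18% and 3.46%), 9 and 16 with 200 UMIs (0.568% and 1.01%), 2 and 10 at 3-fold (0.0373% and 0.187%), 12 and 39 after thinning (0.760% and 2.47%), 20 and 129 on the scale of all UMIs (0.373% and 2.41%), and 13 and 9 in cluster 3 only (1.07% and 0.741%), with 185 in males for the mean over cells (3.45%), 135 in males without the deepest cells (4.01%) and 21 in females in cluster 4 only (0.448%). For cluster 4 over cluster 3 (284 and 36, 14.3% and 1.82%) they were 574 and 84 with 20 UMIs (12.6% and 1.85%), 91 and 11 with 200 UMIs (18.8% and 2.27%), 71 and 10 after thinning (20.6% and 2.90%) and 133 and 20 without the deepest cells (18.7% and 2.81%), with lower calls of 6 on the scale of all UMIs, 58 for the mean over cells and 0 at 3-fold.

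With red blood cells kept, lactotropes were 7.41% of female and 10.4% of male cells. The share of *prl* was 27.7% and 21.1% as a median over cells, 27.8% and 21.7% from exon counts, 29.4% and 22.4% without the deepest cells, 34.1% and 32.5% in cluster 3 and 17.2% and 15.7% in cluster 4. The median share of cells with a UMI of another hormone gene was 92.7% and 96.7% without thinning, and the intron share 14.4% and 15.8% as a median over cells.

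Of 1188 values of named genes under the alternatives, 954 moved by at most 1.5-fold, 206 moved by more and 28 called values changed direction. Some of the alternatives change only the UMI minimum or the fold for a call. These leave the fold of a gene unchanged, so their values among the 954 could not have moved. Against the highest other type the folds in females and males were 0.687 and 0.862 for *asl*, 0.450 and 0.339 for *sncga*, 0.171 and 0.0999 for *rgs5b*, 0.558 and 0.728 for *si:ch211-156l18.7*, 0.679 and 0.936 for *cbln18*, 0.642 and 0.819 for *spaca4l*, 0.839 for *mala* in females and 0.867 for HSPA2 (1 of many) ENSORLG00000028255 in males. Against an equal-weight mean of the types *rgs5b* was at 0.810 and 0.527. In cluster 3 only, the folds over the other cells were 0.361 and 0.314 for *asl*, 0.509 and 0.354 for *mala*, 0.300 and 0.381 for *si:ch211-156l18.7*, 0.372 and 0.257 for *cbln18* and 0.332 and 0.299 for *spaca4l*, and *trmt6* female over male was 0.919. Without the lactotropes with more than 1% red blood cell UMIs, hemoglobin female over male was 1.32. The scale of all UMIs moved the median log2 fold over the other cells by -0.22 in females and -0.05 in males, and that between the sexes by -0.10. Depth per cell and 1 library per sex limit all values.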
